A study of Mus musculus with 6 samples.

Results

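A group of 10 genes of collagen and elastin maturation were followed in RNA from whole mouse aorta: the lysyl oxidases Lox, Loxl1, Loxl2 and Loxl3, the lysyl hydroxylases Plod1 and Plod2, the prolyl 4-hydroxylase subunits P4ha1 and P4ha2, the collagen chaperone gene Serpinh1 and the procollagen processing gene Pcolce. The genes were chosen by name for their role in cross-linking and modifying matrix proteins, and all 10 were found by symbol among the 35275 genes of the deposited table. They and the companion genes below were chosen with earlier results of these data known. Their shares set beside those of all genes are therefore descriptions and not tests. The 3 EC-Jag1KO libraries came from mice without Jagged1, a ligand of Notch receptors, in their endothelial cells, and the 3 wild-type libraries from control mice. The sources used here do not give the driver of the deletion, the strain, the age or whether each library is a separate animal, and the p-values below therefore reflect only how these libraries scatter. The study addresses what loss of endothelial Jagged1 in the mature vessel does to the vessel wall and its smooth muscle. The aorta contains endothelium, smooth muscle and adventitia, and a value in whole tissue is a mixture of them in which fewer cells of a type and less RNA per cell cannot be told apart.

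Collagen chains are modified in the endoplasmic reticulum before they are secreted. Prolyl 4-hydroxylases make the hydroxyproline that stabilises the triple helix, lysyl hydroxylases make the hydroxylysine used in cross-links, and the chaperone HSP47, the product of Serpinh1, holds the folded trimer until it leaves. Outside the cell the propeptides are cut off, a step that the Pcolce product speeds up for the protease BMP1, and the copper-dependent lysyl oxidases then oxidise lysines so that collagen and elastin cross-link. In mice, loss of Lox leads to rupture of the arterial wall, and Loxl1 is needed to maintain elastic fibres.

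Read numbers here and below were recovered from the deposited values and gene lengths. By these, between 19889910 and 25914325 reads fell in genes per library. Jag1, the targeted gene, had 13.5, 9.42 and 19.6 FPKM (fragments per kilobase, relative to the library's reads in genes) in EC-Jag1KO libraries, against 9.86, 10.6 and 16.9 FPKM in wild-type libraries, and the groups overlap. Smooth muscle transcribes Jag1 too, and a whole-tissue level cannot serve as a check of an endothelial deletion. Smooth muscle markers identified the tissue, with a summed level of 5 genes of 11399 to 13583 FPKM in EC-Jag1KO and 13677 to 14342 FPKM in wild-type libraries. Xist and Y-linked genes marked replicate 3 of each genotype as female and the other 4 libraries as male. EC-Jag1KO replicate 3 had the lowest median correlation with the other libraries, 0.964 against 0.970 to 0.981.

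None of the 10 genes passed the test over all genes. Differences were tested with limma on log2(FPKM + 1) over the 12165 genes that averaged 1 FPKM or more, and 0 genes in all (0.0%) reached a Benjamini-Hochberg adjusted p of 0.05. An unadjusted p under 0.05 was found for 938 genes (7.71%), 2 of the 10 among them. These were Pcolce, which stood lower in every EC-Jag1KO library than in any wild-type library, and Loxl2, which stood higher. Groups that do not overlap occurred in 1651 of the 12165 genes (13.6%), so the share of 2 in 10 is to be read against that background. Of the 10 log2 differences 7 were below 0, where 50.0% of all tested genes were, and their median was -0.13 against -0.00022 over all tested genes.

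The ends of the order of levels were the same in the 6 libraries, while genes between them changed places. Serpinh1 was highest, Loxl1 next, Pcolce the third and Loxl2 lowest in 6 of 6 libraries. FPKM is per length of gene, so these levels can be compared roughly between genes. It does not correct for the isoforms used or for reads in overlapping genes. Serpinh1 ran from 278 to 431 FPKM, Loxl1 from 131 to 171 FPKM and Pcolce from 52.5 to 89.3 FPKM over the 6 libraries. Loxl2 ran from 3.90 to 10.3 FPKM, below every value of the next gene, Loxl3, at 18.7 to 27.0 FPKM. Between these ends Pcolce, P4ha1, Plod2, Lox, P4ha2, Plod1 and Loxl3 followed each other by wild-type mean, and the ranges of neighbours in this order overlapped.

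**Figure D1:**
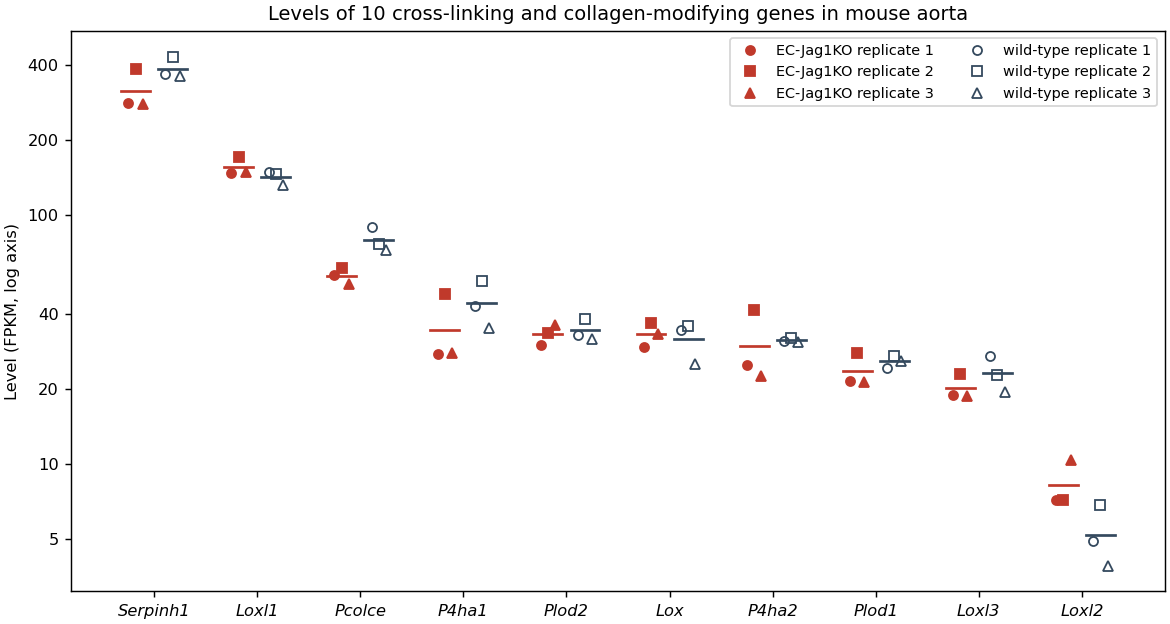
Level of each gene in FPKM on a log axis, genes ordered by wild-type mean, with filled red symbols for EC-Jag1KO and open dark symbols for wild-type libraries; symbol shape gives the replicate and the short line the group mean (n = 3 each). Serpinh1 and Loxl1 lie above all other genes, Loxl2 lies below them, and the groups are apart only in Pcolce and Loxl2.

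Pcolce encodes procollagen C-proteinase enhancer, a secreted protein that increases the removal of the C-propeptide by BMP1. The gene (ENSMUSG00000029718) lies on the minus strand of chromosome 5, 137605103 to 137613784 in mm10. It had 57.1, 60.9 and 52.5 FPKM in EC-Jag1KO libraries, against 89.3, 76.4 and 72.4 FPKM in wild-type libraries. All 3 EC-Jag1KO libraries lay below all 3 wild-type libraries, which occurred in this direction in 6.73% of tested genes. The means were 56.8 ± 4.2 FPKM in EC-Jag1KO and 79.3 ± 8.8 FPKM in wild-type aorta (SD, n = 3 each). The log2 difference was -0.47 with an SE of 0.11 and a 95% interval from -0.74 to -0.20, with an unadjusted p of 0.00418 and an adjusted p of 0.402 in limma. When single libraries were omitted it was -0.53 to -0.38, and without both female libraries it was -0.48. With array weights, which give EC-Jag1KO replicate 1 a weight of 14.7, Pcolce had an adjusted p of 0.0136, and 13.5% of tested genes then passed. The gene overlaps Fbxo24 over 1282 bases on the same strand, and Fbxo24 had at most 0.569 FPKM in any library. How reads in this overlap were counted is not known, so the low Fbxo24 level does not show that Pcolce was unaffected.

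The sum of the 5 smooth muscle markers was below every wild-type sum in the 3 EC-Jag1KO libraries (ranges above), with EC-Jag1KO replicate 2 at 13583 FPKM close to wild-type replicate 3 at 13677 FPKM. Of the single markers Myh11, Tagln and Smtn lay lower in every EC-Jag1KO library than in any wild-type library, as did 6.73% of tested genes. Acta2 and Cnn1 overlapped. Of the 5 differences 4 were below 0, that of Cnn1 was above 0, and 0 passed. The summed level of 6 fibroblast markers was 1012 to 1303 FPKM in EC-Jag1KO and 1069 to 1334 FPKM in wild-type libraries, and these ranges overlap. Dcn alone had 561 to 742 FPKM of this sum over the 6 libraries. Pdgfra and Lum lay higher in every EC-Jag1KO library than in any wild-type library, as did 6.84% of tested genes. The other fibroblast markers overlapped, 3 of the 6 differences were below 0, and 0 passed. The 3 chondrocyte markers, chiefly Comp, summed to 13.0 to 18.6 FPKM in EC-Jag1KO and 22.8 to 61.1 FPKM in wild-type libraries. Col2a1 of this list had at most 0.109 FPKM in any library, so the sum does not by itself mark chondrocytes. The 3 erythroid markers summed to 169 to 834 FPKM in EC-Jag1KO and 645 to 1350 FPKM in wild-type libraries, which overlap, with 3 of 3 differences below 0, a median log2 difference of -1.39, 2 of 3 at an unadjusted p under 0.05 in limma and 0 past the threshold. The part that the cells expressing these markers have in the Pcolce difference was not tested.

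Most other tested genes of propeptide processing had differences above 0, and none passed. Bmp1, the C-proteinase that Pcolce enhances, had 39.6, 51.6 and 43.7 FPKM in EC-Jag1KO libraries, against 41.0, 45.5 and 41.4 FPKM in wild-type libraries, and the groups overlap. The ratio of Pcolce to Bmp1 within a library was 1.44, 1.18 and 1.20 in EC-Jag1KO libraries, against 2.18, 1.68 and 1.75 in wild-type libraries. The groups do not overlap in this ratio, which was chosen with the levels known and has no test. Pcolce2, a related enhancer gene, had 40.1, 41.5 and 38.1 FPKM in EC-Jag1KO libraries, against 35.6, 34.6 and 33.7 FPKM in wild-type libraries. Its log2 difference was 0.20 (SE 0.09, adjusted p = 0.647 in limma), opposite in sign to that of Pcolce. Adamts2, which cuts the N-propeptide, had 57.6, 57.3 and 67.0 FPKM in EC-Jag1KO libraries, against 45.3, 47.0 and 39.0 FPKM in wild-type libraries. All 3 EC-Jag1KO values of Pcolce2 and of Adamts2 lay above all wild-type values, as in 6.84% of tested genes. The adjusted p of Adamts2 was 0.402 in limma. Of 7 listed processing genes 4 were tested, 0 passed, 3 lay higher and 1 lower.

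Loxl2 encodes a lysyl oxidase-like enzyme known for cross-linking collagen IV of basement membranes. The gene (ENSMUSG00000034205) lies on the plus strand of chromosome 14, 69609068 to 69695834 in mm10. It had 7.12, 7.16 and 10.3 FPKM in EC-Jag1KO libraries, against 4.88, 6.80 and 3.90 FPKM in wild-type libraries, on 533 to 1424 reads per library. Every EC-Jag1KO library lay above every wild-type library, which occurred in this direction in 6.84% of tested genes, but wild-type replicate 2 came close to EC-Jag1KO replicates 1 and 2. The means were 8.21 ± 1.85 FPKM in EC-Jag1KO and 5.19 ± 1.48 FPKM in wild-type aorta (SD, n = 3 each). The log2 difference was 0.58 with an SE of 0.21 and a 95% interval from 0.10 to 1.06, and the adjusted p in limma was 0.583. The highest and the lowest Loxl2 values of the series were in the female libraries, EC-Jag1KO replicate 3 and wild-type replicate 3. Without these libraries the log2 difference was 0.27 (unadjusted p = 0.154 in limma), and with sex as a covariate it was 0.58 (unadjusted p = 0.0361). Without EC-Jag1KO replicate 3 alone it was 0.42 (unadjusted p = 0.0771).

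The other lysyl oxidases overlapped between genotypes. Loxl1, the main lysyl oxidase of this tissue by level, had 147, 171 and 149 FPKM in EC-Jag1KO libraries, against 148, 145 and 131 FPKM in wild-type libraries. The log2 difference was 0.13, with a 95% interval from -0.12 to 0.39. Lox, the founding member of the family, had 29.5, 36.7 and 33.3 FPKM in EC-Jag1KO libraries, against 34.3, 35.8 and 25.1 FPKM in wild-type libraries. Its log2 difference was 0.07 with an interval from -0.29 to 0.43, and the sign turned without wild-type replicate 3 (-0.083) or EC-Jag1KO replicate 2 (-0.0020), without both female libraries (-0.089) and with array weights (-0.15). Loxl3 had 18.8, 22.9 and 18.7 FPKM in EC-Jag1KO libraries, against 27.0, 22.7 and 19.5 FPKM in wild-type libraries, a log2 difference of -0.18 with an interval from -0.52 to 0.15. Loxl3 overlaps Htra2, at 5.75 to 11.3 FPKM, over 1297 bases on the opposite strand. No source used here gives the strand setting, so how reads in the overlap were counted is not known. Loxl4, the remaining family member, stood at 2.98 ± 0.46 FPKM in EC-Jag1KO and 2.46 ± 0.43 FPKM in wild-type aorta (n = 3 each).

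Summed over Lox, Loxl1, Loxl2 and Loxl3, the libraries held 203, 238 and 211 FPKM in EC-Jag1KO, against 214, 211 and 180 FPKM in wild-type. Loxl1 made up 70.5 to 72.6% of this sum in EC-Jag1KO and 69.0 to 73.0% in wild-type libraries, and these ranges overlap. Loxl2 amounted to 4.84, 4.19 and 6.94% of the Loxl1 level in EC-Jag1KO libraries, against 3.29, 4.68 and 2.97% in wild-type libraries, and these overlap. Among 8096 genes averaging 5 FPKM or more, those whose profile over the 6 libraries was most like that of Lox in log2(FPKM + 1) included Osbp, Abi1, Papd7 and Usp16, with Pearson r of 0.996, 0.991, 0.980 and 0.979. All profiles were read in the same 6 libraries, so the depth and tissue make-up of each library enter every profile. Of the 8096 genes 63 had an r above 0.9. With 6 libraries and this many genes, high r values also arise between unrelated genes, so these r do not show that the genes follow Lox.

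Serpinh1, P4ha1, P4ha2 and Plod1, which act on collagen in the endoplasmic reticulum, varied together over the 6 libraries. Their pairwise Pearson r in log2(FPKM + 1) ran from 0.808 to 0.965. The grouping was made with these values known and has no test. EC-Jag1KO replicate 2 stood apart from the other EC-Jag1KO libraries in each of the 4 genes, but not in these alone. Loxl3, which acts outside the cell, had the same order. Its EC-Jag1KO replicates 1 and 3 were at 81.6 and 81.0% of its wild-type mean, below every wild-type value. Its replicate 2, at 99.4%, lay among the wild-type values. In Loxl1 and Lox, EC-Jag1KO replicate 2 was also highest, at 121 and 116% of the wild-type mean, above every wild-type value. Serpinh1 (ENSMUSG00000070436, minus strand of chromosome 7, 99345375 to 99353230 in mm10) had 281, 383 and 278 FPKM in EC-Jag1KO libraries, against 366, 431 and 360 FPKM in wild-type libraries. Replicates 1 and 3 of EC-Jag1KO lay below all wild-type libraries and replicate 2 lay among them. The log2 difference was -0.31 with an SE of 0.16 and a 95% interval from -0.69 to 0.07, and the adjusted p in limma was 0.706. With single libraries omitted the difference ran from -0.46 to -0.22.

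P4ha1 (ENSMUSG00000019916, plus strand of chromosome 10, 59323296 to 59373304) encodes the main catalytic subunit of prolyl 4-hydroxylase. It had 27.7, 48.2 and 27.9 FPKM in EC-Jag1KO libraries, against 42.9, 54.0 and 35.2 FPKM in wild-type libraries, and the log2 difference was -0.37 with an interval from -0.94 to 0.20. P4ha2, the other catalytic subunit, had 25.0, 41.4 and 22.5 FPKM in EC-Jag1KO libraries, against 31.2, 32.0 and 30.9 FPKM in wild-type libraries. The 3 wild-type values of P4ha2 were close together, with an SD of 0.573 FPKM against 10.3 FPKM in EC-Jag1KO. Its log2 difference was -0.13 with an interval from -0.63 to 0.36, and it turned to 0.035 without EC-Jag1KO replicate 3 and to 0.025 without both female libraries. Plod1 (ENSMUSG00000019055, minus strand of chromosome 4, 147909753 to 147936767), a lysyl hydroxylase of the helical part of collagen, had 21.5, 27.8 and 21.4 FPKM in EC-Jag1KO libraries, against 24.2, 27.2 and 26.0 FPKM in wild-type libraries. In all 4 genes EC-Jag1KO replicates 1 and 3 lay below every wild-type value, and in P4ha2 and Plod1 EC-Jag1KO replicate 2 exceeded every wild-type value.

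Plod2, the lysyl hydroxylase of the collagen telopeptides, did not share this pattern. It had 30.1, 33.6 and 36.2 FPKM in EC-Jag1KO libraries, against 32.8, 38.3 and 31.8 FPKM in wild-type libraries, with EC-Jag1KO replicate 3 the highest of its group. The log2 difference was -0.04 with an interval from -0.31 to 0.23, and it turned to 0.028 without EC-Jag1KO replicate 1 and to 0.038 without wild-type replicate 2. The ratio of Plod2 to Plod1 was 1.40, 1.21 and 1.70 in EC-Jag1KO libraries, against 1.36, 1.41 and 1.23 in wild-type libraries.

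**Figure D2:**
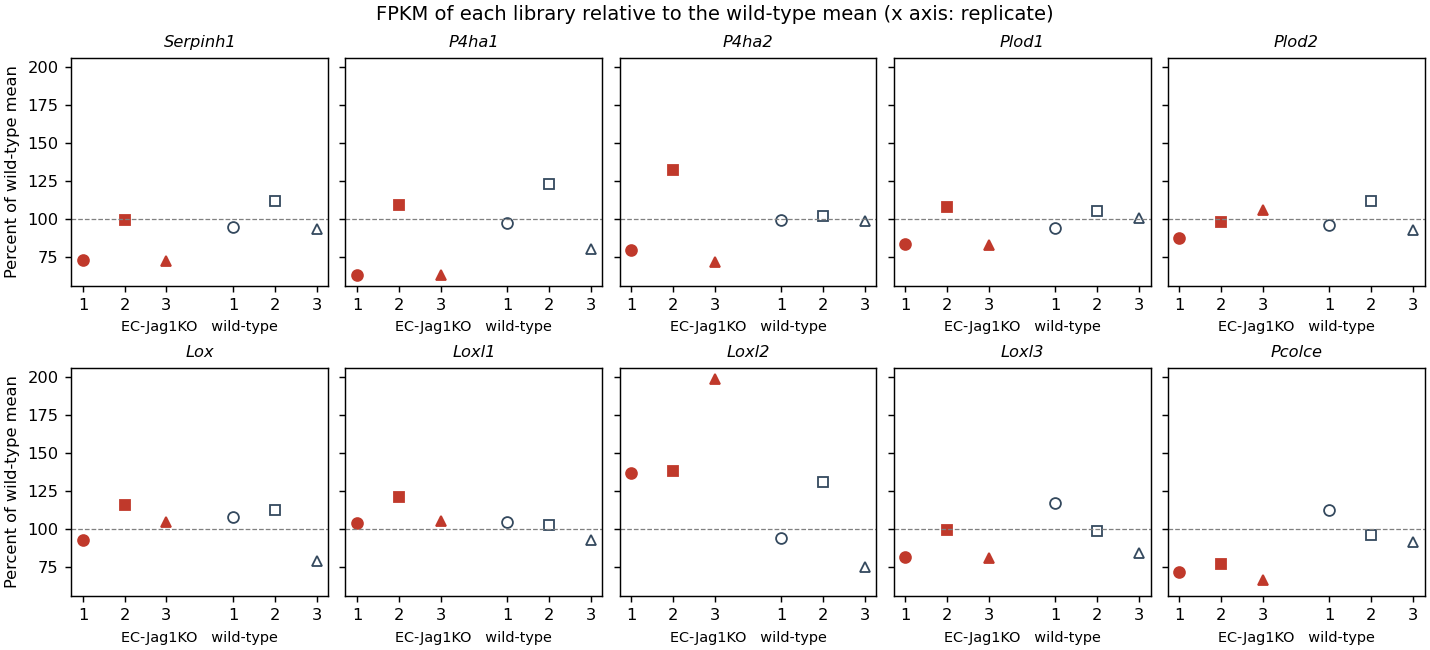
FPKM of each library as a percent of the wild-type mean of the gene, with EC-Jag1KO replicates (filled, red) left of wild-type replicates (open, dark) and the dashed line at 100%. In Serpinh1, P4ha1, P4ha2 and Plod1 the EC-Jag1KO replicates 1 and 3 sit together at 62.9 to 83.3% and replicate 2 at 99.3 to 132%, while in Pcolce all 3 sit at 66.2 to 76.7%.

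Counted by library, EC-Jag1KO replicate 1 had 7 of the 10 genes below every wild-type value and 1 above, EC-Jag1KO replicate 3 had 6 below and 2 above, and EC-Jag1KO replicate 2 had 1 below and 5 above. Over all tested genes the shares below were 26.4, 33.2 and 28.4% in EC-Jag1KO replicates 1, 3 and 2, and the shares above were 29.2, 32.1 and 28.4%. Without EC-Jag1KO replicate 2, 6 of the 10 genes had an unadjusted p under 0.05, against 11.8% of tested genes; leaving out any other single library gave 1 or 2 of the 10. This library was singled out after it was seen to differ in these genes, so the count describes that difference again and lends it no support. The 6 genes were Pcolce, P4ha2, Serpinh1, P4ha1, Loxl2 and Plod1, and the log2 differences of Serpinh1 and P4ha1 were then -0.46 and -0.62. The lowest adjusted p among them was 0.326 in limma, so no gene passed in that fit either. Cardiac muscle markers, 4 genes, summed to 22.1 FPKM in EC-Jag1KO replicate 2 and to 1.90 to 5.92 FPKM in the other 5 libraries. Adipocyte markers, 5 genes, summed to 196 to 340 FPKM in EC-Jag1KO and 57.6 to 355 FPKM in wild-type libraries, with the lowest sum in wild-type replicate 2, the library with the highest Serpinh1 and P4ha1. The part of these tissues in the values was not tested.

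RefSeq promoter windows (GRCm38.p6) were found for 5 of the 10 genes, and the 250 bases before the start are shown for Serpinh1, P4ha1 and Plod1, 3 of the genes that varied together and whose windows lie outside the gene as annotated in the deposited table. They were searched on both strands for ACGTG, a form of the core of the hypoxia response element. It was chosen since prolyl and lysyl hydroxylase genes are known targets of the hypoxia-inducible factor. The other form, GCGTG, was not searched or marked, and it occurs in the printed P4ha1 and Plod1 windows. The windows were also searched on both strands for TGGGAA, the core bound by the Notch partner RBPJ. Capitals mark matches: CACGT is ACGTG and TTCCCA is TGGGAA read on the other strand. Sequences run 5′ to 3′ along the strand of the gene.
Serpinh1, chr7:99353240-99353489, minus strand: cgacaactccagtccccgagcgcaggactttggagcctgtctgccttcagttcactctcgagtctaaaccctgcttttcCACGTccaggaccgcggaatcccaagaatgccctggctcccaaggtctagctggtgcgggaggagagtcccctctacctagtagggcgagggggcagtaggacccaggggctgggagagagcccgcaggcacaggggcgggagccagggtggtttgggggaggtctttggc
P4ha1, chr10:59323046-59323295, plus strand: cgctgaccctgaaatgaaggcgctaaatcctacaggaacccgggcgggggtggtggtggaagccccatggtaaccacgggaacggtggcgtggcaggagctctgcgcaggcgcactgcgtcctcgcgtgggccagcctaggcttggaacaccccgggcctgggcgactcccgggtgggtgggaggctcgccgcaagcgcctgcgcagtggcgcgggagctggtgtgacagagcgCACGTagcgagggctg
Plod1, chr4:147936777-147937026, minus strand: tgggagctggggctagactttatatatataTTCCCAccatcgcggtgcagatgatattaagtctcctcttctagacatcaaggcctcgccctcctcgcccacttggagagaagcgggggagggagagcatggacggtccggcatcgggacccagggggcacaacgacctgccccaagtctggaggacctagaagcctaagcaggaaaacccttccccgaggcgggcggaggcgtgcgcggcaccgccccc
ACGTG was in 3 of the 5 windows (Serpinh1, P4ha1 and P4ha2) and in 16.6% of 32851 windows of the same length. TGGGAA was in 2 of the 5 (Plod1 and Pcolce) and in 21.6% of all windows. A match describes these letters only and shows no binding.

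Companion genes of collagen hydroxylation and folding mostly lay slightly lower. P4hb, the shared beta subunit that the P4ha1 and P4ha2 products need, had 181, 184 and 189 FPKM in EC-Jag1KO libraries, against 190, 212 and 188 FPKM in wild-type libraries. The ratio of P4hb to the sum of P4ha1 and P4ha2 was 3.44, 2.05 and 3.75 in EC-Jag1KO libraries, against 2.57, 2.46 and 2.84 in wild-type libraries, with EC-Jag1KO replicate 2 below and replicates 1 and 3 above all wild-type values. Of 8 listed genes of proline hydroxylation 7 were tested, 6 lay lower and 0 passed. Lepre1 (P3h1), a prolyl 3-hydroxylase gene, stood at 17.4 ± 0.97 FPKM in EC-Jag1KO and 19.5 ± 1.3 FPKM in wild-type aorta, and Leprel4 (P3h4) at 30.4 ± 2.2 FPKM in EC-Jag1KO and 34.2 ± 1.3 FPKM in wild-type aorta (n = 3 each). P4ha3, under the filter, had 0.874, 1.0 and 0.482 FPKM in EC-Jag1KO libraries, against 0.387, 0.116 and 0.178 FPKM in wild-type libraries, on 7 to 48 reads. Plod3, which hydroxylates and glycosylates lysine, stood at 30.2 ± 2.7 FPKM in EC-Jag1KO and 34.3 ± 1.2 FPKM in wild-type aorta, and Colgalt1, a collagen galactosyltransferase gene, at 45.9 ± 1.8 FPKM in EC-Jag1KO and 47.4 ± 3.9 FPKM in wild-type aorta.

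All 7 tested genes of chaperones and endoplasmic reticulum factors had a difference below 0, with 0 past the threshold and a median of -0.10. Mia3 (-0.0050) and Fkbp10 (-0.016) were close to 0, and both turned above 0 without EC-Jag1KO replicate 1, wild-type replicate 1 or wild-type replicate 2, Mia3 also with quantile normalization (0.013). Creb3l1, a transcription factor of collagen secretion, had 14.1, 13.8 and 15.5 FPKM in EC-Jag1KO libraries, against 19.4, 23.5 and 17.1 FPKM in wild-type libraries. These groups do not overlap, as in this direction in 6.73% of tested genes, and the log2 difference was -0.43 (SE 0.13, adjusted p = 0.507 in limma). Fkbp7, a prolyl isomerase gene of the endoplasmic reticulum, had 54.9, 53.3 and 39.0 FPKM in EC-Jag1KO libraries, against 57.1, 56.4 and 59.0 FPKM in wild-type libraries.

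Lysyl oxidases need copper, and the 3 copper supply genes had differences above 0, with 0 past the threshold. Atp7a, the pump that loads copper into secreted enzymes, had 2.64, 1.88 and 3.21 FPKM in EC-Jag1KO libraries, against 1.59, 1.70 and 1.59 FPKM in wild-type libraries. Slc31a1, the copper importer, had 5.74, 5.01 and 5.76 FPKM in EC-Jag1KO libraries, against 4.52, 4.02 and 4.20 FPKM in wild-type libraries. In both genes all EC-Jag1KO values exceeded all wild-type values, as in 6.84% of tested genes, and the adjusted p were 0.609 and 0.549 in limma. Atox1, the copper chaperone gene, had 68.7, 72.4 and 33.7 FPKM in EC-Jag1KO libraries, against 51.9, 43.2 and 57.2 FPKM in wild-type libraries, with EC-Jag1KO replicate 3 below every wild-type value. Its log2 difference of 0.13 turned to -0.027 without EC-Jag1KO replicate 1 and to -0.064 without EC-Jag1KO replicate 2.

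The matrix partners and substrates of the enzymes went both ways. Fbln5, which ties Loxl1 to elastin, had 181, 190 and 226 FPKM in EC-Jag1KO libraries, against 107, 130 and 104 FPKM in wild-type libraries. There was no overlap, as in this direction in 6.84% of tested genes. Fmod, which binds collagen and lysyl oxidase, had 35.8, 38.4 and 44.6 FPKM in EC-Jag1KO libraries, against 85.2, 78.4 and 52.7 FPKM in wild-type libraries. Its groups did not overlap either, as in this direction in 6.73% of tested genes. The log2 differences were 0.80 (adjusted p = 0.259) and -0.83 (adjusted p = 0.402) in limma. Of 5 listed partners 0 passed. Of 8 substrate genes 5 lay higher and 3 lower, again with 0 past the threshold. Col1a1 stood at 297 ± 47.5 FPKM in EC-Jag1KO and 238 ± 17.5 FPKM in wild-type aorta, and Col4a1 at 167 ± 5.5 FPKM in EC-Jag1KO and 198 ± 11.7 FPKM in wild-type aorta (n = 3 each). Over all 42 companion genes 37 were tested, 22 lay lower and 15 higher, 7 had an unadjusted p under 0.05 (background 7.71%), and their median log2 difference was -0.018.

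**Figure D3:**
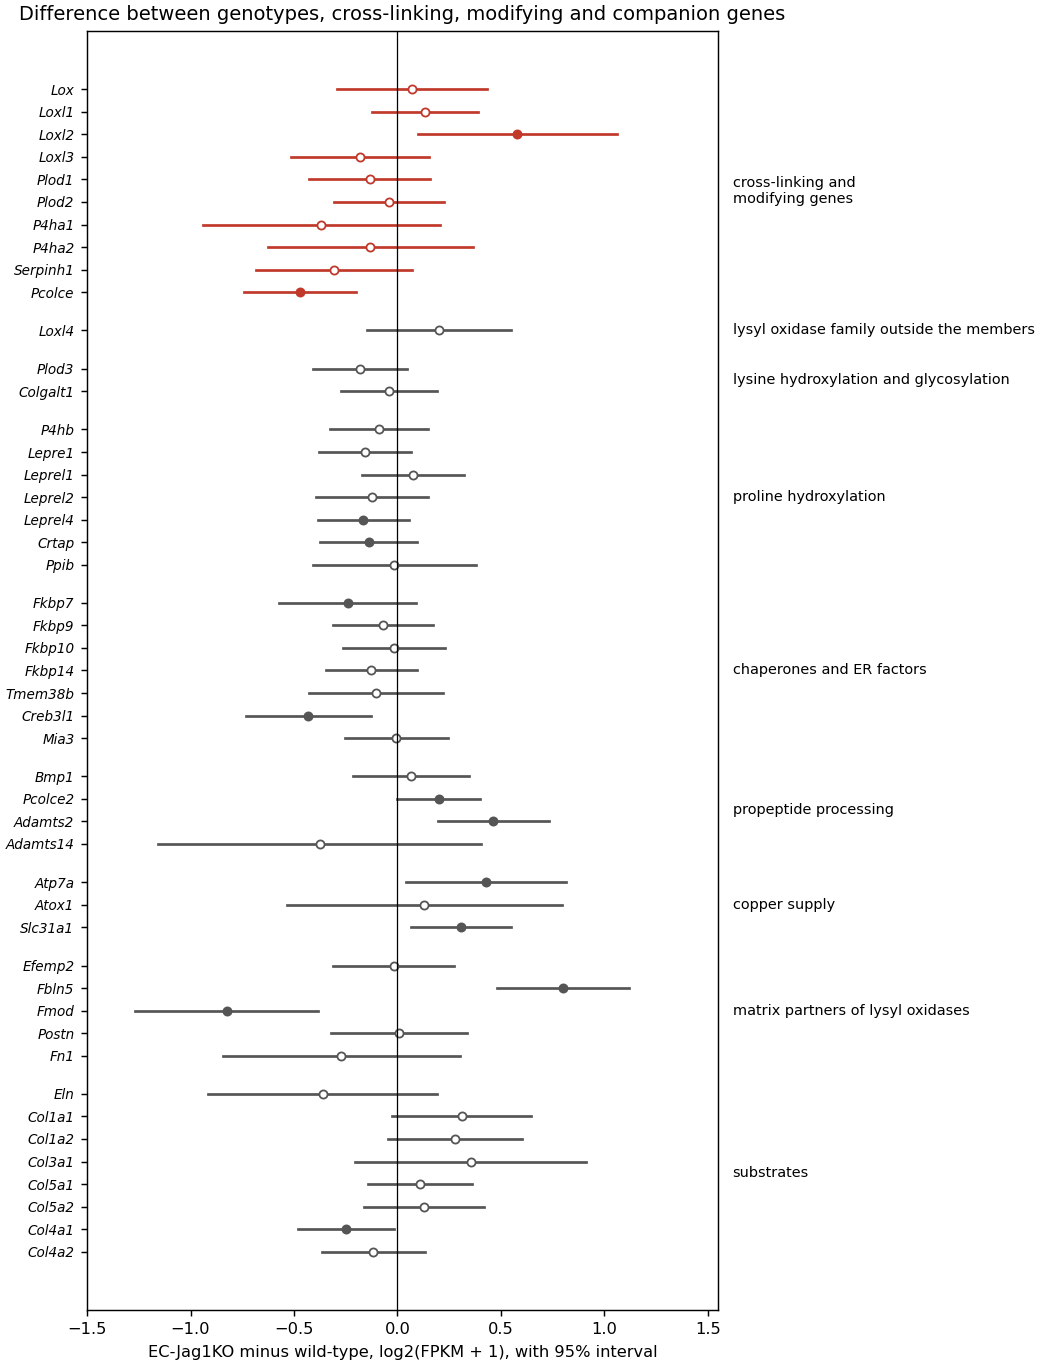
Log2 difference in FPKM + 1, EC-Jag1KO minus wild-type, with its 95% interval from limma, for the 10 genes (red) and the 37 tested companion genes (grey) by group; filled points mark genes whose libraries do not overlap between genotypes. Pcolce lies at -0.47 and Loxl2 at 0.58, and no gene passed the adjusted threshold.

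Serpinh1 and Loxl1 were also set against transcripts of proteins that their products act on. In both ratios EC-Jag1KO replicate 2 stood apart from EC-Jag1KO replicates 1 and 3. The ratio of Pcolce to Bmp1, given above, did not set it apart. Serpinh1 amounted to 43.2, 71.4 and 31.3% of the summed Col1a1 and Col3a1 level in EC-Jag1KO libraries, against 70.8, 71.7 and 73.1% in wild-type libraries. The wild-type values were within a narrow range, EC-Jag1KO replicate 2 lay inside it, and EC-Jag1KO replicates 1 and 3 lay far below it. In EC-Jag1KO replicates 1 and 3 Col1a1 and Col3a1 lay above every wild-type value and Serpinh1 below, so both levels enter the low ratio. Col1a2 was left out of the sum, so the place of replicate 2 holds for this sum only. It had 547, 516 and 625 FPKM in EC-Jag1KO libraries, against 447, 523 and 423 FPKM in wild-type libraries. Loxl1 amounted to 30.8, 20.9 and 28.0% of the Eln level in EC-Jag1KO libraries, against 17.9, 16.9 and 21.3% in wild-type libraries, and EC-Jag1KO replicate 2 lay within the wild-type range. Eln itself had 478, 818 and 531 FPKM in EC-Jag1KO libraries, against 829, 863 and 616 FPKM in wild-type libraries. Loxl1 was highest in EC-Jag1KO replicate 2, at 171 FPKM, so its low ratio there came from the Eln level. These ratios were chosen with the levels known and are given with no test.

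**Figure D4:**
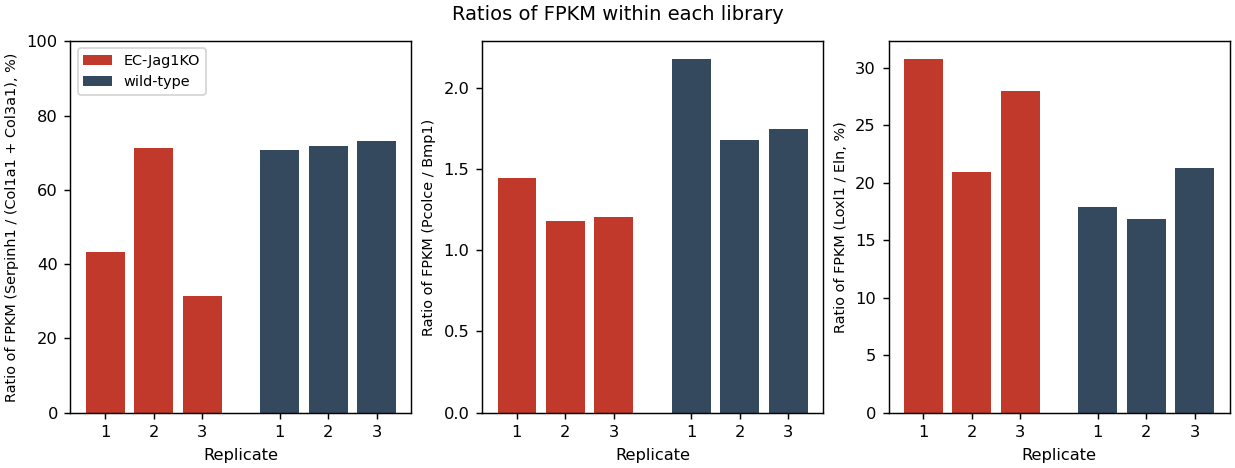
Ratios of FPKM within each library for Serpinh1 to Col1a1 plus Col3a1 (percent), Pcolce to Bmp1, and Loxl1 to Eln (percent), with EC-Jag1KO replicates (red) left of wild-type replicates (dark) and bars from 0. The Serpinh1 ratio is 31.3 and 43.2% in EC-Jag1KO replicates 3 and 1 against 70.8 to 73.1% in wild-type, and the Pcolce to Bmp1 ratio is lower in all 3 EC-Jag1KO libraries.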

How the data were processed

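Total RNA of mouse aorta was isolated with silica spin columns, per the labels' protocols. The authors deposited 1 table of FPKM values for 35275 genes, 1 column per library, with coordinates and lengths per the file headers. Per the submitters' processing notes the authors used the build mm10 and named STAR, HTSeq and edgeR, without roles; annotation release, strand setting and filters are not given there. Multiplied by length, the deposited FPKM values add up equally in all libraries, and 211650 of 211650 (100%) lie within 0.05 of whole reads, at depths of 19889910 to 25914325. At the median gene length 3 reads are 0.0732 to 0.0954 FPKM.

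Values were taken as log2(FPKM + 1), a scale on which low genes change less. The 12165 genes averaging 1 FPKM or more were tested two-sided with limma 3.58.1 (R 4.3.3) in a model of genotype alone, with a variance trend and Benjamini-Hochberg adjustment at 0.05 over all of them. The fit was tested on simulated data. Alternatives used a pseudocount of 0.1, other filters, scalings and variance models, sex, a replicate block, each library left out, and limma voom on recovered reads. The genes and lists were chosen with earlier results of these data known. In each companion list the genes past the threshold, otherwise the 2 of smallest p, were to be named; P4hb, P4ha3, Bmp1 and Eln were added after their values were seen. All 42 companion symbols were matched, 4 through an older symbol. Of 12 cell type marker lists, summed per library, 0 genes passed; lists not described in the text overlapped between groups, except mesothelium (0.442 to 0.780 FPKM in EC-Jag1KO, 0.0620 to 0.198 FPKM in wild-type). Plots were drawn with matplotlib 3.10.9. One gene that the rule for likeness to Lox names is not reported here.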

Additional observations from a re-analysis of the deposited data

How the results depend on the processing

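Over 18 alternatives the 10 genes gave 180 log2 differences, of which 168 kept their sign and their side of the adjusted threshold, 8 turned sign and 4 passed the threshold. With array weights 1647 of all genes passed, among them 4 of the 10 (Pcolce, Serpinh1, P4ha1 and Loxl3) and 12 companions, and the log2 difference of Lox was -0.15; the weight of EC-Jag1KO replicate 1 was then 14.7 and the others were 0.259 to 1.61. The cause was not tested. Sex as a covariate gave 1 call, RP24-479J14.1, and leaving out both female libraries gave 2, Gm10020 and Gm6472, all named after their values were seen; Lox then stood at -0.089 and P4ha2 at 0.025 without these libraries. Leaving out single libraries, the calls over all genes ran from 0 to 4, and the log2 differences from -0.083 to 0.16 for Lox, -0.10 to 0.038 for Plod2 and -0.39 to 0.035 for P4ha2. Pcolce and Loxl2 kept their sign in all 18 alternatives, at -0.53 to -0.38 and 0.27 to 0.76. Limma voom on recovered reads called 0 genes, with 987 at an unadjusted p under 0.05; the planned edgeR and DESeq2 tests of those reads were not run, since the deposited unit is FPKM. Libraries of the same number did not deviate together (r of deviations from the group means -0.050 to 0.055, with 0 of 3 EC-Jag1KO libraries closest to their own number). The fit with the replicate number as a block called 0 genes and had 842 at an unadjusted p under 0.05, against 938, and 3 of the 10, against 2. Each of the 10 genes had 533 or more reads in every library.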
